A study of Homo sapiens with 6 samples.

Results

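Interferon-stimulated genes are genes whose transcription rises when a cell senses interferon, and 47 of them, picked by name, are described here in HL60 cells given tretinoin. They were picked with earlier results of these data known. Each of the 47 has at least 1 probe set on the Affymetrix HG-U133A array that is annotated to that gene alone, and 11963 genes in all have such a probe set. HL60 cells are a long-established human line of promyelocytic leukemia that matures along the myeloid lineage under tretinoin (all-trans retinoic acid), which binds the retinoic acid receptors. The tretinoin condition received 1 μM tretinoin in dimethyl sulfoxide (DMSO) and the DMSO condition received DMSO alone, with DMSO at 0.1% and 5 days of culture in both. There were 3 arrays per condition, and by the study's methods they were parallel hybridizations of labeled product pooled within each condition. The p-values below therefore rest on how far hybridizations of 2 pools differ, not cultures, and so few arrays limit the precision. A single cell line was used, and the labels name no added interferon in either condition.

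Interferons are secreted proteins that warn cells of infection. Type I interferons bind the receptor chains IFNAR1 and IFNAR2, interferon gamma binds IFNGR1 and IFNGR2, and the kinases JAK1, TYK2 and JAK2 on these receptors pass the signal to transcription factors. The type I response acts through a complex that includes IRF9 and binds the interferon-stimulated response element in the promoters of its targets, while interferon gamma acts mainly through the gamma-activated site. The proteins made in response block the entry, transcription, translation or release of viruses, and several also act in resting myeloid cells.

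The response element is shown first, because it was found in promoters of members that rose with tretinoin and in promoters of members that stayed at the bottom of the signal range. RefSeq promoters of GRCh38.p14, from 250 bases before to 50 bases after each gene start, were at hand for 37 of the 47 genes and were searched on both strands. Capitals mark the core of the element, searched as the letters GAAA, any 2 bases, and GAAA again, or on the opposite strand as TTTC, any 2 bases, and TTTC. Each window is given 5′ to 3′ on the strand of its gene and ends at or before the start. The first group was called higher in tretinoin, that is, at a limma adjusted p below 0.05 and an estimate of 1.5-fold or more, as 13.5% of all genes tested were. IFI6 lies at chr1:27672251-27672310 and IFITM3 at chr11:320861-320920, both on the minus strand, with IFITM1 at chr11:313975-314034 on the plus strand, and LGALS3BP at chr17:78979947-78980006 and PLSCR1 at chr3:146544652-146544711 on the minus strand.
IFI6: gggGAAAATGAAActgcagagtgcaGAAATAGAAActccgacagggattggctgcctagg
IFITM3: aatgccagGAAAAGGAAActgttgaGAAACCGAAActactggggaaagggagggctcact
IFITM1: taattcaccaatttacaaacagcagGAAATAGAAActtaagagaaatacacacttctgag
LGALS3BP: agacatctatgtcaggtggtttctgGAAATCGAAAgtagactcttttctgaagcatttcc
PLSCR1: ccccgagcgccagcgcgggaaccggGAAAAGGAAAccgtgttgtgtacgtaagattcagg

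In the next windows are ISG15, which was measured but not called, and 4 genes that exceeded the floor of 20 on none of the 6 arrays. ISG15 lies at chr1:1013365-1013424, IFIT1 at chr10:89392495-89392554, RSAD2 at chr2:6877607-6877666 and IFI44L at chr1:78620350-78620409, all on the plus strand, and GBP1 at chr1:89065301-89065360 on the minus strand. In ISG15 the capitals hold 2 cores that overlap.
ISG15: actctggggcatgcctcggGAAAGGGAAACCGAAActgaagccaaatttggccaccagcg
IFIT1: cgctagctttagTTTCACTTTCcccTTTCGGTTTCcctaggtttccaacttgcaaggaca
RSAD2: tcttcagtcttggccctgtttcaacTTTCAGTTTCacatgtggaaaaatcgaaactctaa
IFI44L: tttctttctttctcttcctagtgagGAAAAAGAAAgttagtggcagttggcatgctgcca
GBP1: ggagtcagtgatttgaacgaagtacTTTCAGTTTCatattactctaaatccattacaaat

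The core was present in the promoters of 27 of the 37 genes, or 73%, against 3.57% of all 35116 promoters in the table and 4.38% of the 27305 genes that they belong to. Among members called higher it was found in 6 of 11 (IFI6, IFITM1, IFITM3, LGALS3BP, PLSCR1 and TRIM21). Among tested members without a call it was found in 11 of 14, and among members too dim to be tested in 10 of 12. The gamma-activated site, searched as TTCNNNGAA, was present in 9 of the 37 genes, or 24.3%, against 7.66% of all promoters and 9.38% of the genes that they belong to. Of the members called higher, IFITM1, IFI35 and PLSCR1 held it. A retinoic acid response element of direct repeats, searched as AGGTCA, any 5 bases, and AGGTCA again, was found in none of the 37 and in 0.0057% of all promoters, which says only that these letters are not in these windows. A match is a description of the sequence and not a measured binding site, and matches of the different motifs may overlap.

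**Figure D1:**
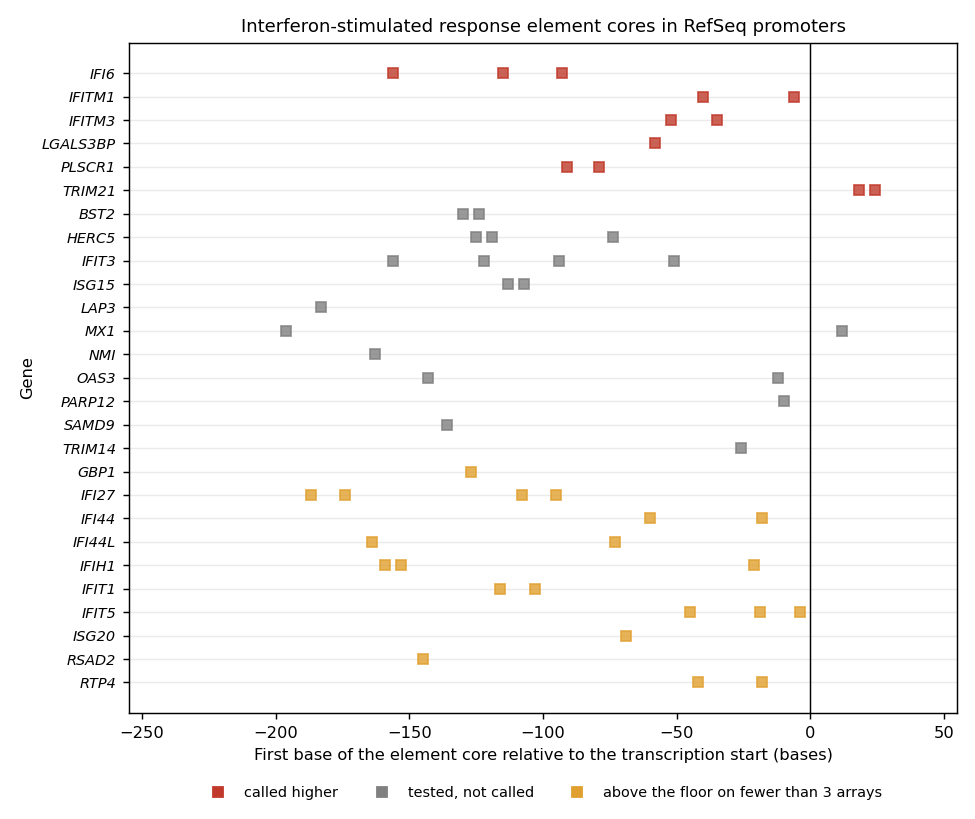
Position of each interferon-stimulated response element core in the RefSeq promoters of the 27 members that hold it, in bases from the transcription start, which is the vertical line. Squares are cores, red for members called higher in tretinoin, gray for tested members without a call and yellow for members above the floor on fewer than 3 arrays, and most cores of each group lie upstream of the start, with those of TRIM21 downstream of it.

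Signals are linear MAS5 intensities in arbitrary units, here multiplied so that every array had the mean of DMSO replicate 1 (factors 0.820 to 1.36). Signals below 20, the baseline that the study set, were raised to 20 for the fit but are printed below as measured. Between 54.9% and 60.1% of the 22283 probe sets exceeded 20 on an array. A gene was tested with limma where its brightest probe set exceeded 20 on at least 3 arrays, with p-values adjusted over all probe sets tested. Folds below come from the same estimates on the log2 scale, with standard errors (SE) in log2 units, so they are ratios of geometric means with values under the floor taken as 20, and can differ from ratios of the printed means.

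Of the 47 interferon-stimulated genes, 15 were called higher in tretinoin and none was called lower, where 13.5% of all 8161 genes tested were called higher and 14.3% lower. IFITM3, a membrane protein that blocks the fusion of viruses with endosomes, rose 7.32-fold, IFI6, a small antiviral protein, rose 5.57-fold, and IFI35 rose 3.52-fold. These folds are lower bounds, as is that of GBP2, since DMSO arrays under the floor were taken as 20. With a floor of 10, the log2 fold change was 2.90 for IFI6 and 2.90 for IFITM3. The others called were GBP2, IFITM2, SAMHD1, MX2, TRIM38, LGALS3BP, TRIM22, TYMP, IFITM1, PLSCR1, ADAR and TRIM21. Several of the best known early targets of type I interferon were not among them, since IFIT1, RSAD2, USP18 and IFI44L exceeded 20 on none of the arrays and ISG15 was not called. In all, 32 members were tested and 15 were too dim. The 15 called are 46.9% of the members tested. None lower is also what limma gave before the fold minimum, and 1 of the 32 (LAP3) was lower at an unadjusted p under 0.05, beside 22.1% of all genes tested. The median log2 fold change of the 32 was 0.63, and that of all genes tested was -0.04. A member that is high only in tretinoin passes the filter through that condition, so these counts and medians describe the members measured and not all 47.

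Near background lay 18 of the 47 members, with a mean signal under 40 in both conditions, which is 38.3% beside 48.5% of all genes. These were the 15 that were not tested and HERC5, HERC6 and SAMD9. No member lacked a probe set. Of the 32 tested, 27 had a fitted change above 0 and 5 below. All tretinoin arrays lay above all DMSO arrays for 19 of the 32 tested members, beside 21.5% of all genes tested, and below them only for LAP3, beside 24.7%. The 19 are the 15 called and MX1, IFI16, ZC3HAV1 and SAMD9.

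**Figure D2:**
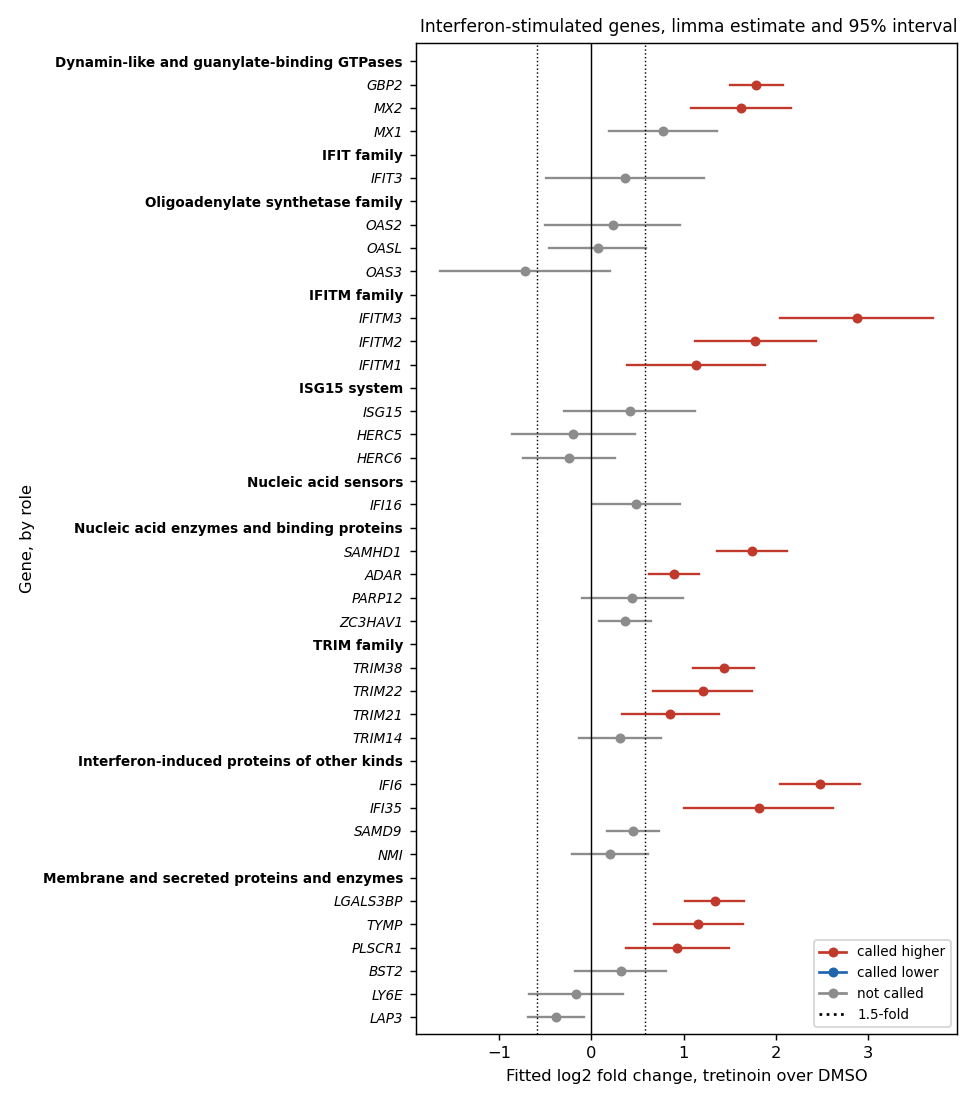
Fitted log2 fold change of tretinoin over DMSO for the 32 tested interferon-stimulated genes, grouped by role. Points are limma estimates and lines their 95% intervals, red for the 15 called higher and gray for the 17 not called, and dotted lines mark 1.5-fold in each direction.

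The IFITM proteins, small membrane proteins that hold back virus entry, were the family in which every member was called higher. IFITM3 gave signals of 47.4, 19.7 and 19.4 on the DMSO arrays and 217, 161 and 213 on the tretinoin arrays, which do not overlap. Its rise was 7.32-fold (log2 2.87, SE 0.35, limma adjusted p = 0.000974) with 2 of the DMSO arrays, just under 20, taken as 20. IFITM2, a close relative, gave 47.5, 104 and 63.9 on the DMSO arrays and 241, 214 and 245 on the tretinoin arrays. The lowest tretinoin array of IFITM2 was well above the highest DMSO array, and the gene rose 3.42-fold (SE 0.28, adjusted p = 0.00294). IFITM1, found more at the cell surface, gave 20.6, 28.1 and 36.7 on the DMSO arrays and 44.6, 91.5 and 54.7 on the tretinoin arrays. It rose 2.19-fold (SE 0.32, adjusted p = 0.0321), with tretinoin replicate 2 far above the other tretinoin arrays. The call of IFITM1 was lost without DMSO replicate 1 or 2 or without tretinoin replicate 2 or 3, with a floor of 40 and with no filter on low values. The probe sets of IFITM2 and IFITM3 carry the array maker's x mark for probes that also match other transcripts, and these genes are near-identical in sequence, so their signals may be shared. A further probe set annotated to both IFITM1 and IFITM2 was not used.

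Among the large GTPases, which form rings or coats on viruses and on vacuoles, MX2 and GBP2 were called higher. MX2, which is found at nuclear pores and blocks the nuclear import of retroviruses, gave 48.2, 27.2 and 40.7 on the DMSO arrays and 122, 126 and 101 on the tretinoin arrays. Its conditions stood clear of each other at 3.08-fold (SE 0.23, adjusted p = 0.00189). GBP2, a guanylate-binding protein best known as a target of interferon gamma, gave 14.7, 16.5 and 21.2 in DMSO and 67.9, 76.6 and 67.2 in tretinoin. All tretinoin arrays of GBP2 were above the floor and only 1 DMSO array was, and its rise was 3.45-fold (SE 0.12, adjusted p = 0.000102). MX1, the cytoplasmic relative of MX2 and a classical marker of type I interferon, gave 9, 29.3 and 30.4 in DMSO and 34.2, 57.7 and 45.4 in tretinoin. These arrays do not overlap either, but MX1 missed the call at a log2 fold change of 0.78 (95% interval 0.19 to 1.36, adjusted p = 0.0509). It was called with median, trimmed mean or quantile scaling and without tretinoin replicate 1, so its side of the threshold depends on the processing. GBP1 never exceeded 20 on either of its probe sets.

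SAMHD1, a phosphohydrolase that depletes deoxynucleotides and so restricts retroviruses in myeloid cells, rose most among the enzymes of nucleic acids, with 80.8, 96.2 and 114 on the DMSO arrays and 312, 342 and 311 on the tretinoin arrays. The spread within either condition was small beside the gap, and SAMHD1 rose 3.34-fold (SE 0.16, adjusted p = 0.000288). ADAR, which edits adenosine in double-stranded RNA and has an interferon-driven promoter beside a constitutive one, gave 272, 267 and 279 in DMSO and 498, 531 and 497 in tretinoin. It rose 1.86-fold (SE 0.11, adjusted p = 0.00121). The call was lost on the values as deposited, without scaling, and with a fold minimum of 2. ZC3HAV1, a protein that binds viral RNA and recruits its decay, differed by 1.29-fold on its brightest probe set (adjusted p = 0.0549), and its other probe set gave a log2 fold change of -0.10. PARP12, an ADP-ribosyltransferase, differed by 1.36-fold (adjusted p = 0.197). RSAD2 (viperin, which makes a chain-terminating nucleotide), the exonuclease ISG20 and the cytidine deaminase APOBEC3G exceeded 20 on none of the arrays.

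Of the TRIM family, TRIM38, TRIM22 and TRIM21 were called higher and TRIM14 was not. TRIM38, which tunes innate immune signaling, gave 68.3, 82.1 and 74.9 on the DMSO arrays and 196, 225 and 187 on the tretinoin arrays. It rose 2.7-fold (SE 0.14, adjusted p = 0.000373), and its other probe sets were called too, at 2.6-fold and 1.93-fold. TRIM22, which restricts several viruses, gave 41.6, 45.1 and 43.6 in DMSO and 70.2, 125 and 114 in tretinoin. Its DMSO arrays lay close together and tretinoin replicate 1 was the lowest of the tretinoin arrays, still above all of them, for a rise of 2.3-fold (SE 0.23, adjusted p = 0.00661). TRIM21, a receptor for antibody bound to viruses inside the cell, rose 1.81-fold (adjusted p = 0.024). Its call was lost when DMSO replicate 1 or any 1 of the tretinoin arrays was left out, and without scaling. A floor of 40, no filter on low values or a fold minimum of 2 also removed the call. The probe sets of TRIM14 went different ways, with log2 fold changes from -0.67 to 0.31, and none was called.

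IFI6, IFI35 and the dim SAMD9 stood out among the interferon-induced proteins of other kinds. IFI6, a protein of the endoplasmic reticulum and mitochondria, gave 16.6, 5.95 and 23.6 on the DMSO arrays and 136, 129.7 and 92.5 on the tretinoin arrays. Only DMSO replicate 3 exceeded the floor, against every tretinoin array, and the rise was 5.57-fold (log2 2.48, SE 0.18, adjusted p = 0.000138). IFI35, a partner of NMI in a cytoplasmic complex, gave 22.3, 18.9 and 49.4 in DMSO and 89.4, 115 and 92.9 in tretinoin. The lowest tretinoin array was above the highest DMSO array, DMSO replicate 3, and IFI35 rose 3.52-fold (SE 0.34, adjusted p = 0.0066). NMI itself was not called, at 197 ± 13.6 in DMSO and 229.9 ± 45.2 in tretinoin (SD, n = 3), with a 95% interval of -0.21 to 0.62 for its log2 fold change. SAMD9, an antiviral factor against poxviruses, gave 5, 1.74 and 13.2 on the DMSO arrays and 28.6, 28.4 and 25.4 on the tretinoin arrays. All DMSO arrays were under the floor and all tretinoin arrays just over it, so SAMD9 passed the adjusted p (0.0245) but not the fold minimum, with an estimate of 1.37-fold, and it was called with a floor of 10. IFI27, IFI44, IFI44L, RTP4, APOL3 and XAF1 were too dim to be tested, and XAF1 exceeded 20 only on DMSO replicate 1, at 43.6.

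**Figure D3:**
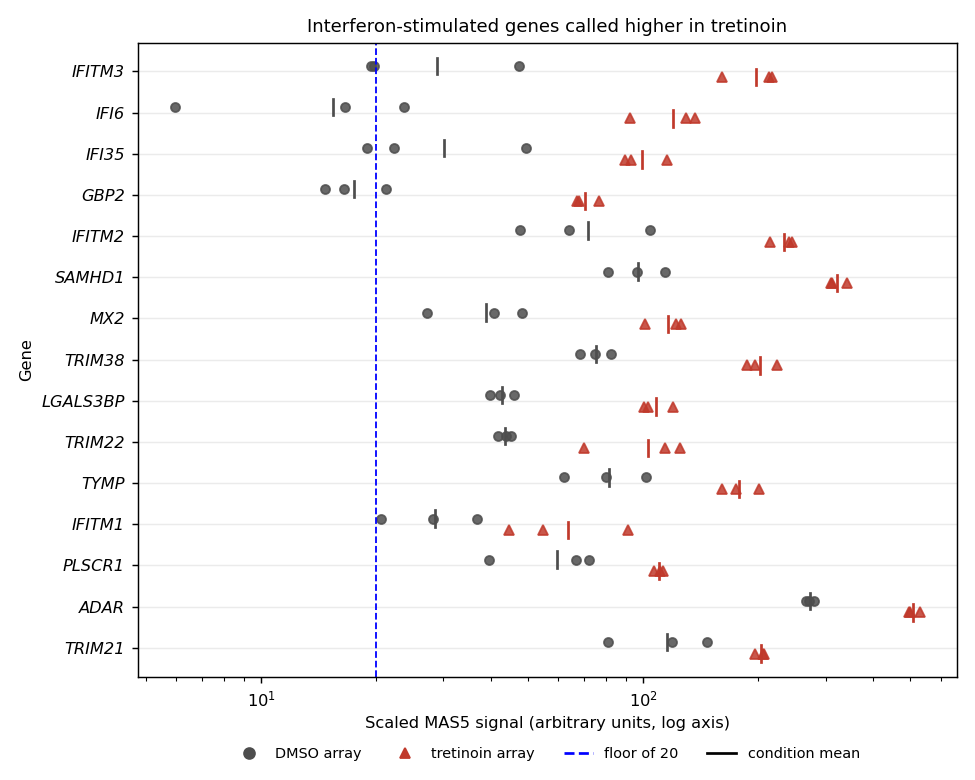
Scaled MAS5 signal of the 15 interferon-stimulated genes called higher in tretinoin, on a log axis. Circles are the 3 DMSO arrays, triangles the 3 tretinoin arrays, short bars the condition means and the dashed line the floor of 20, and for each gene every tretinoin array lies above every DMSO array.

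Membrane and secreted proteins and metabolic enzymes of the set were all measured, and 3 of 6 were called higher, beside 13.5% of all genes tested. LGALS3BP, a secreted galectin-binding glycoprotein, gave 45.8, 39.8 and 42.2 on the DMSO arrays and 100.4, 119.9 and 103 on the tretinoin arrays. These tight groups lay far apart, at 2.52-fold (SE 0.13, adjusted p = 0.000433). TYMP, thymidine phosphorylase, which breaks down thymidine, gave 80, 102 and 62.1 in DMSO and 175, 201 and 161 in tretinoin. It rose 2.23-fold (SE 0.20, adjusted p = 0.00486), and its other probe set rose 2.18-fold. PLSCR1, a phospholipid scramblase that rises in maturing myeloid cells as well as with interferon, gave 72.3, 39.6 and 66.9 in DMSO and 110.5, 113 and 107 in tretinoin. The tretinoin arrays were nearly equal and the DMSO arrays were spread, and PLSCR1 rose 1.91-fold (SE 0.24, adjusted p = 0.0217). That call was lost when any 1 of the tretinoin arrays was left out, with a floor of 40 and without scaling. It was also lost with no filter on low values and with a fold minimum of 2. The dimmer probe set of PLSCR1 was under the floor on all DMSO arrays. LAP3, a leucine aminopeptidase, was the gene whose tretinoin arrays all lay below DMSO, at 157, 157 and 138 on the DMSO arrays and 107, 116 and 122 on the tretinoin arrays, but its change of log2 -0.39 missed both thresholds (adjusted p = 0.0571). BST2 (tetherin, which holds budding viruses at the cell surface) and LY6E overlapped between conditions, at 75.3 ± 17.5 in DMSO and 92.4 ± 10.5 in tretinoin for BST2 and 60.1 ± 17.8 in DMSO and 52.3 ± 3.87 in tretinoin for LY6E (SD, n = 3).

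None of the oligoadenylate synthetases, which make the second messenger that switches on an RNA-degrading enzyme, was called. OAS1 gave 11.7, 10.2 and 6.15 on the DMSO arrays and 18.7, 17.6 and 24.9 on the tretinoin arrays. It exceeded 20 only on tretinoin replicate 3 and was not tested. OAS2 gave 26.2, 43.5 and 43.3 in DMSO and 43.8, 60.8 and 29.9 in tretinoin, which overlap (log2 fold change 0.23, 95% interval -0.50 to 0.96). OAS3 gave 55.2, 69 and 53.2 in DMSO and 36.1, 19 and 62.8 in tretinoin. Tretinoin replicate 2 of OAS3 was under the floor and tretinoin replicate 3 lay among the DMSO arrays, so its log2 fold change of -0.72 had a wide interval of -1.64 to 0.20. Without tretinoin replicate 3, OAS3 was called lower, which makes it the only member called lower under any setting tried. OASL, a relative that lacks the enzyme activity, gave 81, 65.4 and 74.8 in DMSO and 57.1, 101 and 79.5 in tretinoin, again with overlap (log2 fold change 0.07, 95% interval -0.46 to 0.59).

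The IFIT proteins, which bind foreign RNA, were not called either. IFIT1, among the most strongly induced targets of type I interferon, gave 3.4, 3.38 and 5 on the DMSO arrays and 2.71, 6.27 and 3.38 on the tretinoin arrays. IFIT5 gave 3.1, 6.15 and 11.3 in DMSO and 5.21, 11 and 5.44 in tretinoin. Both stayed far under 20 on every array. IFIT3 gave 66.3, 27.1 and 42.6 in DMSO and 39.8, 55 and 74.3 in tretinoin, spread widely within each condition (log2 fold change 0.36, 95% interval -0.49 to 1.22, adjusted p = 0.508). This interval leaves room for a clear rise as well as for a fall. IFIT2, a relative from the wider pathway list, had a log2 fold change of 0.04 (95% interval -0.94 to 1.02).

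In the ISG15 system, which attaches the ubiquitin-like protein ISG15 to other proteins, no member was called. ISG15 gave 48.2, 40.7 and 28.9 on the DMSO arrays and 62.2, 34 and 63.7 on the tretinoin arrays. Tretinoin replicate 2 lay among the DMSO arrays, and the log2 fold change was 0.42 (95% interval -0.29 to 1.13, adjusted p = 0.349). USP18, the protease that removes ISG15 and dampens the receptor, gave 8, 7.38 and 2.87 in DMSO and 2.61, 3.41 and 5.35 in tretinoin, all under the floor. The ligase HERC5 and its relative HERC6 lay near background, with log2 fold changes of -0.20 and -0.24. Of the sensors of foreign nucleic acid, IFI16, which senses DNA, differed by 1.4-fold (adjusted p = 0.111) with arrays that do not overlap, and its other probe sets gave log2 fold changes of 0.32 and 0.56. IFIH1 (MDA5), which senses long double-stranded RNA, was too dim to be tested.

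**Figure D4:**
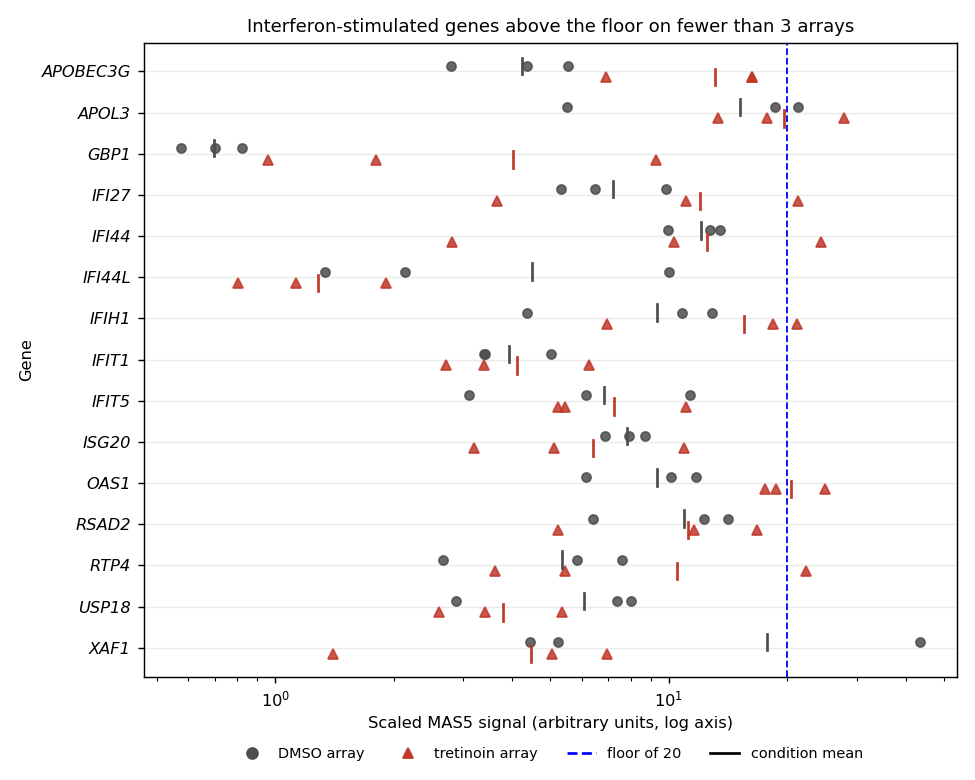
Scaled MAS5 signal of the 15 interferon-stimulated genes that exceeded the floor of 20 (dashed line) on fewer than 3 arrays, on a log axis. Circles are DMSO arrays, triangles tretinoin arrays and short bars the condition means, and all points lie at 43.6 or below, with order among points under the floor not interpretable.

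The other genes of the pathway were read from lists that follow the signal from ligand to target. Of 86 genes listed, 73 had a probe set of their own and 52 were tested, of which 19 were called higher, 2 lower and 31 neither, beside 27.9% of all genes tested that were called in either direction. The remaining 13 of the 86 were not analysed here. Of the 14 interferon genes themselves, only 6 were tested, and none of these was called. Near background lay 12 of the 14, or 85.7%, beside 48.5% of all genes. The exceptions were IFNA14 and IFNA17. IFNA17 gave 123, 116 and 73.3 on the DMSO arrays and 59.7, 72.1 and 99.7 on the tretinoin arrays. IFNB1, the first type I interferon made on infection, gave 5.4, 3.28 and 5.5 on the DMSO arrays and 1.5, 3.55 and 5.16 on the tretinoin arrays, all under the floor. IFNG, interferon gamma, gave 17.5, 24.1 and 31.7 in DMSO and 31, 26.2 and 27.5 in tretinoin, with a 95% interval of -0.27 to 0.63 for its log2 fold change. The IFNA genes are near-identical, so their probe sets may share signal, and none of them was called.

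Receptor chains were higher in tretinoin in 4 of 5 cases, beside 13.5% of all genes tested. IFNAR2, the chain of the type I receptor that binds interferon most tightly, rose 2.58-fold, from 117, 106 and 111 on the DMSO arrays to 285, 308 and 269 on the tretinoin arrays. IFNGR1, which binds interferon gamma, rose 2.31-fold, from 159, 140.0 and 196 in DMSO to 375, 341 and 422 in tretinoin. Its partner IFNGR2 rose 2.24-fold, from 258, 263 and 255 in DMSO to 572, 550.0 and 617 in tretinoin. In each of these the conditions were separate, and the same held for IL10RB, the shared chain of the interleukin 10 and interferon lambda receptors, at 2.49-fold (adjusted p from 0.000264 to 0.0018 over the 4). IFNAR1 passed the adjusted p (0.0323) but not the fold minimum, with an estimate of 1.4-fold, with every DMSO array under the floor.

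Kinases and transcription factors of the pathway were higher in 7 of 10 cases and lower in 1. Of all genes tested, 13.5% were higher and 14.3% lower. TYK2, the kinase bound to IFNAR1, rose 3.44-fold, from 15.4, 35.1 and 65.9 in DMSO to 131, 113 and 127 in tretinoin, with DMSO arrays that differed widely (SE 0.39, adjusted p = 0.0129). IRF1, an activator induced by interferon gamma, rose 2.53-fold (adjusted p = 0.000416), and IRF2, its antagonist at many promoters, rose 2.65-fold (adjusted p = 0.00109). IRF8, a factor of the monocyte lineage, fell 3.52-fold (adjusted p = 9.67e-05). Called as well, and named after their values were seen, were JAK1 (2-fold), JAK2 (1.81-fold), IRF9 (1.9-fold) and IRF7, which amplifies type I interferon (1.79-fold). JAK2 was close to the threshold (adjusted p = 0.0459), and its DMSO replicate 1 was under the floor. IRF9 and IRF7 were under the floor on all DMSO arrays and lay under 50 on all tretinoin arrays. IRF3 and IRF5 were not called.

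Of the inhibitors of the pathway, 2 of 8 were higher, 1 was lower and 5 were not called. Of all genes tested, 27.9% were called in either direction. PTPN6 (SHP-1), a tyrosine phosphatase of blood cells, rose 2.43-fold (adjusted p = 0.000432), and PIAS1 rose 1.95-fold (adjusted p = 0.00251). CISH, a feedback inhibitor of cytokine receptors, was 2.33-fold lower with tretinoin replicate 2 at 69.8 above the other tretinoin arrays (adjusted p = 0.0297). SOCS1 and SOCS3, the feedback inhibitors that interferons induce most directly, lay near background, with 95% intervals of -0.80 to 0.80 and -0.39 to 1.47 for their log2 fold changes. In sensing, 2 of 6 tested genes were higher, MYD88 and TBK1, beside 13.5% of all genes tested. TBK1 rose 1.53-fold, just over the fold minimum (adjusted p = 0.00884). MYD88, the adaptor of the Toll-like receptors, gave 160.1, 180.0 and 168 on the DMSO arrays and 646, 673 and 649.7 on the tretinoin arrays, a rise of 3.88-fold (adjusted p = 6.65e-05). The study picked 90 transcripts from these same arrays and MYD88 is one of them, which makes its direction no independent evidence, while no probe set of the 47 members was picked. RIGI, DHX58, TLR3, TLR7 and TLR8 were too dim to be tested. UBE2L6, the conjugating enzyme for ISG15, rose 1.68-fold (adjusted p = 0.0167).

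Of 27 further interferon-induced genes, a list that repeats IRF7, UBE2L6 and EIF2AK2 from above, 19 were tested, 5 were higher and none was lower. The shares of all genes tested were 13.5% higher and 14.3% lower. SECTM1, a secreted and membrane protein of myeloid cells, rose 2.62-fold, from 11.2, 13.6 and 16.8 in DMSO to 51.8, 45.7 and 61 in tretinoin. Every DMSO array of SECTM1 was under the floor and was taken as 20, so this fold is a lower bound. SP100 and SP110, proteins of nuclear bodies, rose 2.41-fold and 2.36-fold (adjusted p = 0.0157 and 0.00189). CXCL9 and CXCL10, chemokines typical of interferon gamma, were not called, and CXCL10 lay near background with a 95% interval of -0.53 to 0.57. PSMB9, an immunoproteasome subunit, had an adjusted p of 0.0138 and missed the fold minimum at 1.49-fold.

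**Figure D5:**
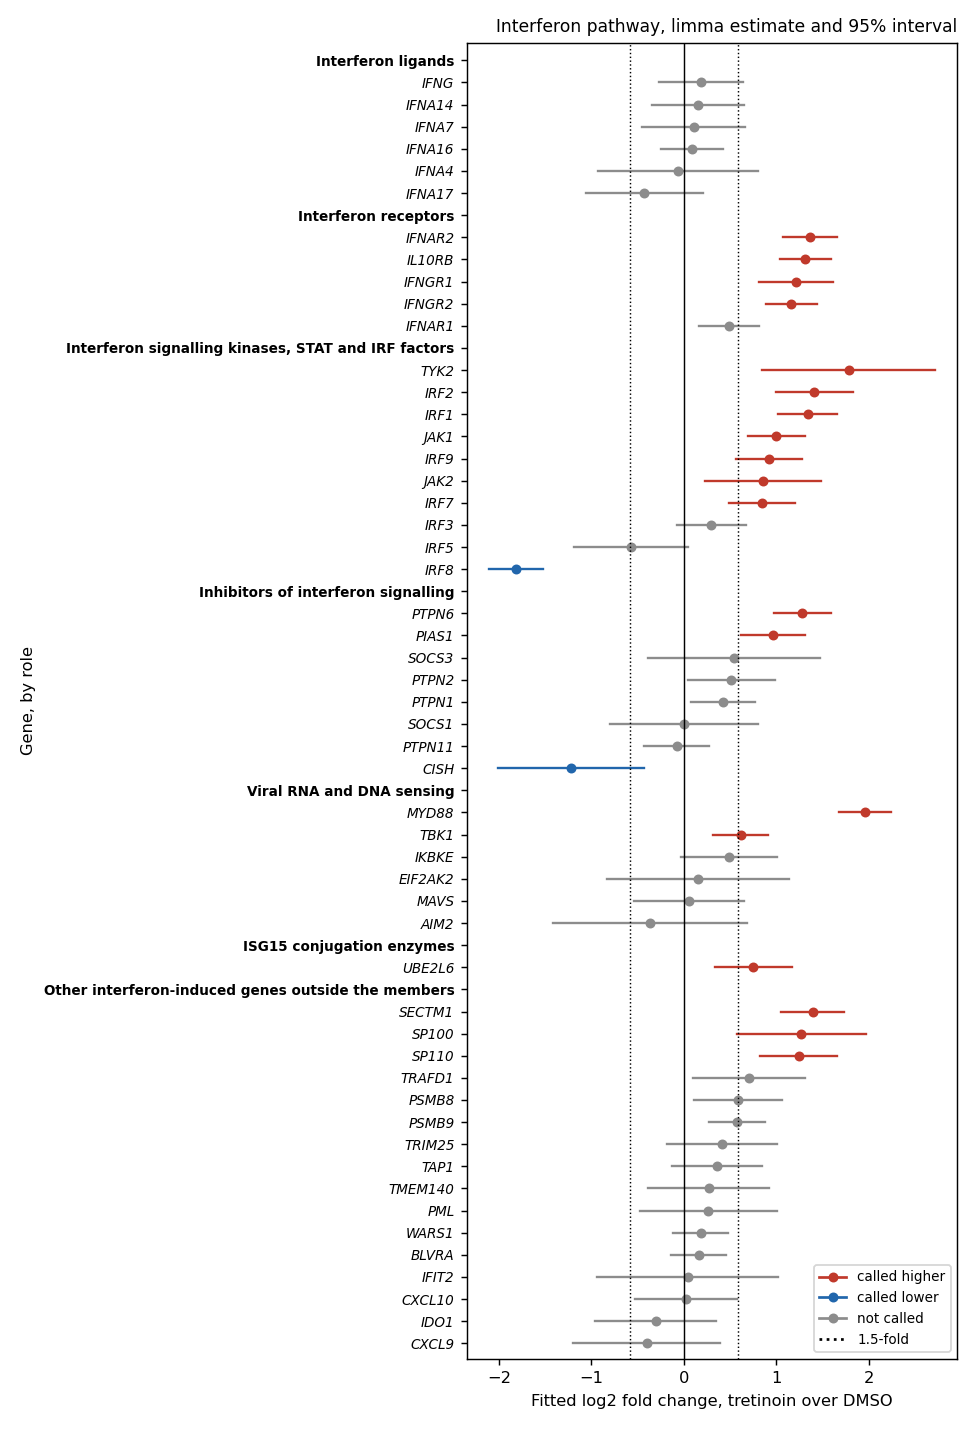
Fitted log2 fold change of tretinoin over DMSO for the tested genes of the interferon pathway lists, each shown once. Points are limma estimates and lines their 95% intervals, red for called higher, blue for called lower and gray for not called, with the receptor chains to the right of 0 and IRF8 and CISH to the left of it.

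The state of the cells changed at the same time. The summed signal of 6 neutrophil markers lay between 292 and 319 in DMSO and between 2370.2 and 2647 in tretinoin, with all 6 higher. That of 6 markers of monocytes and macrophages was 123 to 156 and 1375 to 1550.0, with VSIG4, CSF1R and CD14 higher, and CD163, FCGR1A and MRC1 too dim to be tested. That of 5 promyelocyte markers fell from between 3296 and 3815 to between 171 and 208. A single gene carried much of each of these changes. In tretinoin, NCF1 gave 1498, 1174 and 1454, and VSIG4 gave 1170, 1035 and 1126. MPO gave 2914, 2997 and 3367 in DMSO. Other higher markers of neutrophils, monocytes and macrophages rose between 1.77-fold (CXCR2) and 11.8-fold (CEACAM1). Sums for lineages foreign to HL60 overlapped between the conditions, and not all were below the DMSO sum of monocytes and macrophages. Markers of B and plasma cells summed to 45.7 to 78.7 in DMSO and 43.1 to 68.8 in tretinoin over 4 genes, and those of red cells and megakaryocytes to 128 to 149 and 115 to 172 over 5 genes. The 8 markers of T and NK cells summed to 215 to 229 and 191 to 305, and of these NKG7 was higher and CD8A lower, with CD3D and CD3G too dim to be tested. The part of this change of state in the signals of the interferon-stimulated genes was not tested, and in such bulk RNA more cells of a kind and more RNA per cell cannot be told apart.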

How the data were processed

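The values analysed are linear MAS5 signal intensities deposited by the authors for 6 HG-U133A arrays, 3 per condition, before the scaling between arrays that their methods describe. The MAS5 version is not given in the sources used here. Mean signal per array ran from 91.3 to 152. Arrays were scaled to the mean of DMSO replicate 1, values under 20 were set to 20, and probe sets exceeding 20 on at least 3 arrays, 13374 in all, entered limma 3.58.1 (R 4.3.3, lmFit then eBayes) on the log2 scale, with Benjamini-Hochberg adjustment over all of them. Calls needed an adjusted p below 0.05 and an estimate of 1.5-fold or more. The fit was tested on simulated data in which only probe sets well above the floor were changed, so changes near the floor were not covered.

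Platform annotation named 19071 probe sets by 1 symbol, 1043 by several and 2169 by none, and only the first were used, with symbols updated by gene identifier to RefSeq. The 47 members have 66 such probe sets, and the brightest stands for a gene. Members, lists and rules were chosen with earlier results of these data known. Values per array are given for the 14 largest rises among called members, for any called falls, and for the MX, IFIT, OAS and IFITM families, ISG15 and USP18. Of the pathway lists, the 12 largest called changes and the short lists are named, and others were named after their values were seen. LAP3, GBP1, SAMD9 and the further members are named to account for all 47. Promoters were searched in Python 3.11.15 with pandas 2.3.3. Alternatives covered scaling, floor, filter, variance prior, fold minimum, probe set, replicate block and each array left out.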

Additional observations from a re-analysis of the deposited data

How the results depend on the processing

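Under 21 alternative settings, the number of members called higher ran from 11 to 16, beside 15, and 10 of the 15 kept their call under every setting in which they were tested. IFITM1, ADAR, TRIM21, IFI35 and PLSCR1 lost it under at least 1. None of the 15 changed direction. No member was called lower except OAS3 without tretinoin replicate 3, so that leaving out each array gave 0 to 1. The median log2 fold change of the tested members, 0.63, was 0.34 without scaling (which moved the median of all genes from -0.04 to -0.22), 0.88 with a floor of 10, 0.43 with a floor of 40 and 0.31 with no filter on low values. Leaving out each array gave 0.59 to 0.84, the highest without tretinoin replicate 1. A floor closer to the signal compresses folds by construction, and with no filter the 15 genes mostly under the floor enter the median. The pathway lists, with 21 genes called, gave 14 to 23 under the alternatives.

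Deviations of same-numbered arrays correlated at -0.03, -0.01 and 0.07, and not every array correlated best with its own number. The signals thus showed no pairing by replicate number, but this cannot tell whether the numbers marked shared handling. With the replicate block, 16 members were called higher, the 15 and MX1, and 21 pathway genes were called. The number of arrays and signals near the floor of 20 limit what could be seen for the 18 of the 47 genes near background.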
